A study of Danio rerio with 1536 samples.

Results

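The genes followed here belong to the neuronal differentiation programme, and they were read in single neurons of the zebrafish spinal cord. They were neurod1 (ENSDARG00000019566), neurod4 (ENSDARG00000003469) and the 2 gene rows annotated as copies of ebf1 (ENSDARG00000069196 and ENSDARG00000099849). The name table used here does not tell the zebrafish ebf1 paralogues apart, so ENSDARG00000069196 is called ebf1-X and ENSDARG00000099849 ebf1-Y. The genes were chosen by identifier, as 4 of the 32519 gene rows of the count tables. Cells were FACS-sorted from dissociated spinal cords of fish aged 7 weeks, of either sex, and sequenced with Smart-seq2, a full-length single-cell RNA protocol without molecular identifiers. The first line, Tg(isl1a:GFP), carries GFP in motoneurons (MNs) and in other spinal neurons. The second line, Tg(chx10:GFP), carries GFP in V2a interneurons (INs), the excitatory neurons that drive MNs. Both lines carried a GFP transgene, and both sorts took GFP and DRAQ5 positive events. Each line had 2 plates, each made from a pool of 6 to 10 cords, and the plate is the replicate here. A p-value between lines therefore sets the difference against the spread between these pools. Tests among cell classes or clusters had the plate as a term. Their p-values set the difference against the spread that remains after that term. After filtering, 259 and 363 isl1a:GFP cells and 300 and 325 chx10:GFP cells were kept on plates 1 and 2, which gives 1247 cells in all.

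NEUROD proteins are basic helix-loop-helix (bHLH) transcription factors that act after the proneural factors, pair with E proteins and activate neuronal genes in newborn neurons. Some of them stay on in selected mature neurons. EBF proteins (early B-cell factors, COE family) bind DNA through their own zinc-containing domain, and in vertebrate embryos they act during migration and differentiation of young neurons, often downstream of bHLH factors. In the spinal cord both families are best known from the stage between leaving the cell cycle and maturation.

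The lines matched their labels. The MN transcription factor isl1a was at 186 and 565 CPM (reads of the gene scaled to the library's gene total) on the 2 isl1a:GFP plates, against 0.0832 and 1.70 CPM on the chx10:GFP plates. Summed V2a markers were at 111 and 85.7 CPM in isl1a:GFP cells, against 3464 and 3483 CPM in chx10:GFP cells. Median depth per cell was 403751 and 436783 gene reads on the isl1a:GFP plates, against 324159 and 367903 on the chx10:GFP plates. The isl1a:GFP plates did not match each other: the summed level of 7 immature neuron markers, among them tubb5, elavl3 and marcksl1a, was at 4167 CPM on plate 1 and 11160 CPM on plate 2. Their kept wells also differed in median spike-in share, at 1.57% on plate 1 and 0.075% on plate 2. Each result that rests on 1 of these plates is given per plate.

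Each gene was read in part of the cells. A cell is called positive here when it had 10 or more reads of a gene. For comparison, such shares were also read for urp2, a peptide gene of cerebrospinal fluid-contacting neurons, which was at 6646 and 8801 CPM on the isl1a:GFP plates and is known from those neurons, not from MNs or V2a INs. Positive cells for urp2 were 1.63% and 2.87% of MN-like cells, against 0% and 0.308% of chx10:GFP cells. These are shares of a gene in cells that should lack it, at the depths given above. The urp2 level was far above that of the 4 genes, and the chx10:GFP plates held no urp2-making class, so the urp2 shares set no common limit for the 4 genes.

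neurod1, the most widely detected of the genes, was at 109 and 491 CPM in isl1a:GFP cells, against 376 and 522 CPM in chx10:GFP cells. Positive cells made up 15.8% (95% exact interval 11.6 to 20.9) and 36.4% (31.4 to 41.6) of isl1a:GFP cells. They made up 47% (41.2 to 52.8) and 56.6% (51.0 to 62.1) of chx10:GFP cells. The shares did not overlap between lines, whereas the CPM values did. The share of all genes with plates apart in this way was not counted, here or for neurod4 and ebf1-X below. On isl1a:GFP plate 1, the 10% of cells with most reads held 94.8% of all neurod1 reads, and on plate 2 they held 55.3%. On the chx10:GFP plates they held 52.3% and 42.2%. The median neurod1 level of positive cells was 343 and 1221 CPM in isl1a:GFP cells, against 626 and 719 CPM in chx10:GFP cells.

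neurod4, a family member best known from neural precursors and newborn neurons, was at 7.87 and 41.3 CPM in isl1a:GFP cells, against 71.1 and 197 CPM in chx10:GFP cells. Positive cells were 2.32% (0.855 to 4.97) and 6.89% (4.51 to 10.0) in isl1a:GFP, against 11.7% (8.26 to 15.8) and 22.5% (18 to 27.4) in chx10:GFP. Both chx10:GFP plates lay above both isl1a:GFP plates in level and in share. The reads came from few cells, since the top 10% held 96.9% and 82.1% of them on the chx10:GFP plates.

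ebf1-X showed the opposite order. It was at 3.02 and 16.8 CPM in isl1a:GFP cells, against 0.104 and 0.319 CPM in chx10:GFP cells. Positive cells numbered 9 of 259 and 24 of 363 in isl1a:GFP, against 0 of 300 and 0 of 325 in chx10:GFP. The exact upper limits of the chx10:GFP shares were 1.22% and 1.13%. The 10 and 38 ebf1-X reads of the chx10:GFP plates were spread over 1.67% and 4.92% of the cells.

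ebf1-Y was detected in both lines, at 14.6 and 35.0 CPM in isl1a:GFP cells, against 32.6 and 49.5 CPM in chx10:GFP cells. Positive cells were 9.65% (6.34 to 13.9) and 15.7% (12.1 to 19.9) in isl1a:GFP, against 15.7% (11.7 to 20.3) and 28% (23.2 to 33.2) in chx10:GFP. The plates of the lines overlapped in level and met in share, so the lines could not be separated by this gene. These exact intervals cover counting error only.

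**Figure D1:**
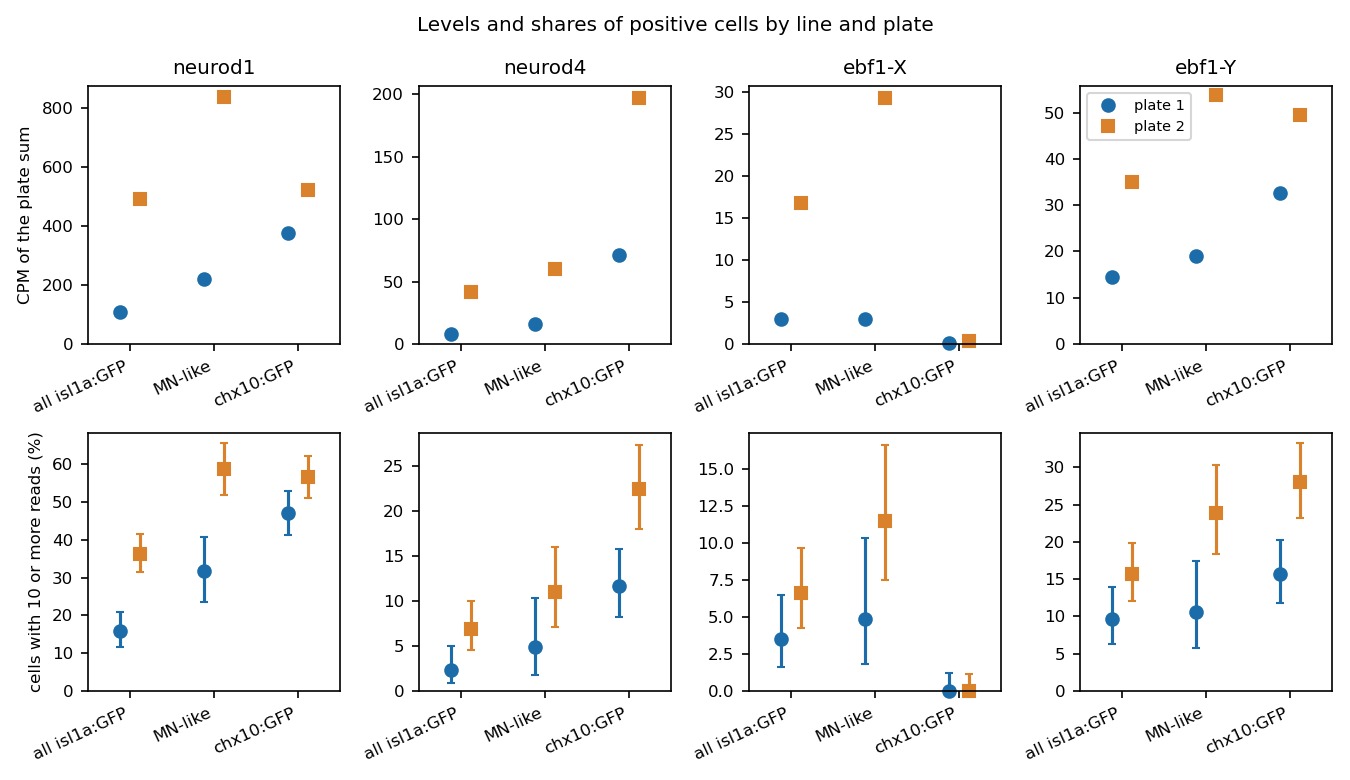
Upper row, CPM of the plate sum for each gene (linear axes, each with its own range). Lower row, share of cells with 10 or more reads, with 95% exact binomial intervals. From left to right, all isl1a:GFP cells, the MN-like cells among them and chx10:GFP cells, with circles for plate 1 and squares for plate 2. neurod4 was higher on both chx10:GFP plates, and ebf1-X reached 16.8 CPM in isl1a:GFP cells and stayed under 0.32 CPM in chx10:GFP cells.

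Whether the lines differed was tested on plate sums with the edgeR quasi-likelihood test, fitted on 23956 genes, of which 728 (3.04%) were called at an adjusted p under 0.05. None of the 4 genes was called, that is 0 of 4, while 2 of them had an unadjusted p under 0.05. DESeq2 called 2, but it also called 3161 of all genes. Log2 differences are isl1a:GFP minus chx10:GFP and are given ± standard error. ebf1-X differed by 5.60 ± 1.19 (adjusted p = 0.0673) and neurod4 by -2.39 ± 0.85 (adjusted p = 0.219). neurod1 differed by -0.52 ± 0.67 (adjusted p = 0.773) and ebf1-Y by -0.68 ± 0.51 (adjusted p = 0.578). The median of all genes tested was 0.02. Without isl1a:GFP plate 1 the neurod1 difference became 0.20, and without isl1a:GFP plate 2 it became -2.07 with an adjusted p of 0.0238. DESeq2 gave adjusted p-values of 9.4e-08 for ebf1-X and 0.0257 for neurod4.

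Since isl1a:GFP labels several kinds of neurons, the levels were read next by cell class. Cells were clustered within each line on variable genes from which the 4 genes and every listed regulator had been removed, so that none of them could define a cluster. The clusters still come from the same cells, and a difference between them says that a gene goes with the other genes of those cells. The isl1a:GFP cells fell into MN-like cells (123 and 209 on plates 1 and 2), cerebrospinal fluid-contacting neuron-like cells (76 and 96), serotonergic neuron-like cells (30 and 30), and an unnamed class led by sst7, plp1b and slc17a6 (30 and 28).

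neurod1 reads came almost wholly from the MN-like cells, which held 98.5% and 97.4% of them on plates 1 and 2. The level was 222 and 838 CPM in MN-like cells. It was 0.0315 and 37.5 CPM in cerebrospinal fluid-contacting neuron-like cells, 0.175 and 0.46 CPM in serotonergic neuron-like cells and 15.8 and 32.3 CPM in the sst7-led class. The 37.5 CPM rested on 4 positive cells of 96. neurod1 was the only one of the 4 genes called among the classes (edgeR F test, adjusted p = 0.0368), where 5.59% of 19790 genes were called. Against the mean of the other classes, MN-like cells were 6.99 higher on the log2 scale (adjusted p = 0.0218; standard error 1.1), beside a median of 0.34 and 1.31% of all genes called higher there. The F test call was lost without the plate term (adjusted p = 0.0797).

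The other 3 genes did not pass that test. neurod4 was at 16.1 and 59.7 CPM in MN-like cells, and 27.4 CPM on plate 2 in the cerebrospinal fluid-contacting class came from 2 positive cells. It was at or under 0.19 CPM in all remaining classes and plates. ebf1-X levels in MN-like cells were 2.96 and 29.3 CPM, against 15.2 and 0.596 CPM in the sst7-led class, so the order of these classes turned between plates. ebf1-Y was at 19.1 and 53.8 CPM in MN-like cells, against 49.0 and 30.3 CPM in the sst7-led class, where 36.7% and 17.9% of cells were positive. ebf1-Y was thus not restricted to MN-like cells. Adjusted p-values of the edgeR F test were 0.1 for neurod4, 0.14 for ebf1-X and 0.209 for ebf1-Y.

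MN-like cells alone were then compared with chx10:GFP cells. neurod1 was positive in 31.7% and 58.9% of MN-like cells, against 47% and 56.6% of chx10:GFP cells, and the levels differed by 0.35 ± 0.63 on the log2 scale (adjusted p = 0.867). ebf1-X differed by 6.35 ± 1.40 (adjusted p = 0.136), neurod4 by -1.72 ± 0.76 (adjusted p = 0.376) and ebf1-Y by -0.06 ± 0.57 (adjusted p = 0.982). edgeR called 0 of 4 genes beside 0.774% of all 22869 genes tested (177 genes), with 1 of the 4 under an unadjusted p of 0.05. DESeq2 called 1, but it also called 2144 of all genes.

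Among the MN-like cells, neurod1 differed between clusters. The reclustered cells comprised MN fast-like cells (5 and 45 on plates 1 and 2), immature neuron-like cells (8 and 33), MN caudal-like cells (35 and 50), MN slow-intermediate-like cells (29 and 20) and an unnamed cluster led by foxp4, foxb1 and the Notch targets her4 and her15 (46 and 61). That cluster is called her4-led below. Its best marker type was MN slow-intermediate, with 5 of 5 markers detected but a mean z-score of 0.159, against 1.096 in the slow-intermediate-like cluster. The rule on Notch targets left it unnamed. At resolution 0.8 a cluster of 59 cells led by Notch targets was unnamed. A cluster of 55 cells led by foxp4 and foxb1 was named MN slow-intermediate-like there. Every fast-like cell and every immature neuron-like cell on both plates was positive for neurod1. Its level was 1865 and 1727 CPM in fast-like cells and 1223 and 1545 CPM in immature neuron-like cells. It was 136 and 695 CPM in the her4-led cluster, 56.2 and 65.3 CPM in caudal-like cells and 36.8 and 99.8 CPM in slow-intermediate-like cells. Fast-like and immature neuron-like cells lay above all others on both plates, and the last 2 clusters overlapped each other. The share of all genes with clusters apart in this way was not counted.

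The cluster test had the plate as a term, so clusters were compared within plates. neurod1 was called among the MN-like clusters by the edgeR F test (adjusted p = 0.00701), 1 of 4 genes, where 0.34% of 17643 genes were called. Against the mean of the other clusters it was 2.85 ± 0.33 higher on the log2 scale in fast-like cells (adjusted p = 0.00698), where 0.051% of all genes were called higher. In immature neuron-like cells it was 2.65 ± 0.33 higher (adjusted p = 0.00579), beside 0.51% of all genes. In caudal-like cells it was lower, at -2.87 ± 0.47 (adjusted p = 0.0482), beside 0.0227% of all genes. In slow-intermediate-like cells it was lower, at -2.90 ± 0.47 (adjusted p = 0.0449), beside 0.0113% of all genes. The median of all genes in these contrasts lay at -0.56, -0.68, 0.51 and 0.29, so each exceeds the general shift of its cluster. The F test call was lost without the plate term (adjusted p = 0.0547) and at a clustering resolution of 0.8 (adjusted p = 0.298).

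The share of these clusters differed between the isl1a:GFP plates, as did the neurod1 level of the line (109 and 491 CPM). The part of these shares in the line's values was not tested. The fast-like and immature neuron-like clusters made up 1.93% and 3.09% of cells on plate 1, against 12.4% and 9.09% on plate 2. They carried 30.2% and 36.1% of the plate's neurod1 reads on plate 1, and 41.8% and 27.7% on plate 2. The summed immature neuron markers were higher on plate 2 within each MN-like cluster as well. They were at 5014 and 15230 CPM in caudal-like, 5443 and 11000 CPM in slow-intermediate-like and 6080 and 13280 CPM in fast-like cells. In immature neuron-like cells they were at 19100 and 26640 CPM, and in the her4-led cluster at 2825 and 14750 CPM. The cause of this shift was not tested.

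neurod4 divided the clusters that neurod1 joined. It had 0 reads in the 5 fast-like cells of plate 1 and 4 reads in the 45 of plate 2, with no positive cell. In immature neuron-like cells it was at 148 and 80.5 CPM, with 3 of 8 and 5 of 33 cells positive. The her4-led cluster had 9.69 and 142 CPM, with 1 of 46 and 16 of 61 cells positive. Most neurod4 positive MN-like cells of plate 2 thus lay there, in this clustering. When MN-like cells were integrated once with all isl1a:GFP cells, an immature neuron-like cluster of 81 cells had neurod4, her15.1 and her15.2 among its leading genes. In caudal-like cells 1 cell was positive on each plate, and likewise in slow-intermediate-like cells. Against the mean of the other clusters neurod4 was 4.94 ± 0.95 higher on the log2 scale in immature neuron-like cells (edgeR adjusted p = 0.0304). The F test over all MN-like clusters did not call it (adjusted p = 0.14).

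Neither ebf1 copy was called among the MN-like clusters. ebf1-X was at 0 and 105 CPM in fast-like cells, where 0 of 5 and 14 of 45 cells were positive, and at 0.297 and 24.9 CPM in immature neuron-like cells. Of its reads on plate 2, 74.3% were in fast-like cells. With 5 fast-like cells on plate 1, a share like that of plate 2 (31.1%) could not be told from 0, since the exact interval ran up to 52.2%. Its F test gave an adjusted p of 1. ebf1-Y was at 124 and 180 CPM in immature neuron-like cells, with 5 of 8 and 25 of 33 positive. In fast-like cells it was at 165 and 7.33 CPM, with 2 of 5 and 3 of 45 positive, and the order against the other clusters changed with the plate. It was at most 18.8 CPM in caudal-like and slow-intermediate-like cells. Immature neuron-like cells lay 3.93 ± 1.07 above the remaining clusters in ebf1-Y on the log2 scale (edgeR adjusted p = 0.118).

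**Figure D2:**
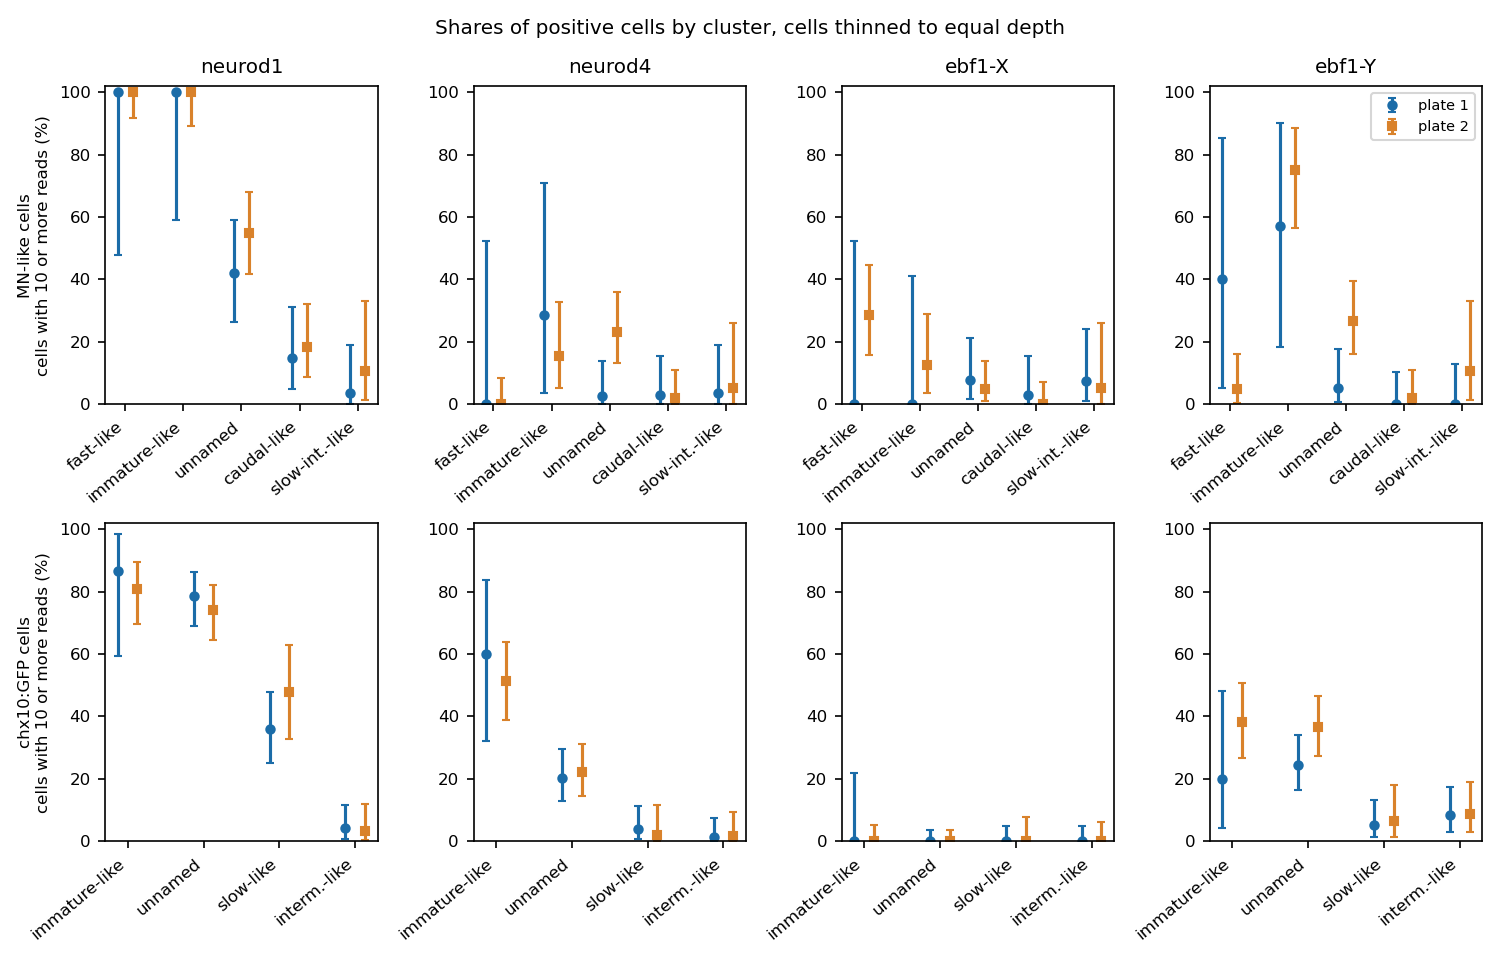
Share of cells with 10 or more reads after cells were thinned to 240501 reads, with 95% exact intervals, for MN-like clusters (upper row) and chx10:GFP clusters (lower row), circles for plate 1 and squares for plate 2. Cells with fewer reads were left out, 36 of the isl1a:GFP and 89 of the chx10:GFP cells. The unnamed clusters are the her4-led MN-like cluster and the cd74a-led chx10:GFP cluster. neurod1 was at 100% in fast-like and immature neuron-like MN cells of both plates, neurod4 at 0% in the fast-like cells, and ebf1-X at 0% in every chx10:GFP cluster.

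In chx10:GFP cells 3 of the 4 genes were called among clusters by the edgeR F test, where 3.16% of 20634 genes were called, and ebf1-X did not pass the filter on low counts. The clusters were immature neuron-like (15 and 76 cells), V2a slow-like (86 and 53), V2a intermediate-like (79 and 73) and an unnamed cluster (120 and 123) led by cd74a, stm, the cholinergic gene SLC5A7 and the glial genes gfap, fabp7 and apoeb. In that cluster gfap was at 144 and 352 CPM, against at most 36.9 CPM in the other chx10:GFP clusters, and the part of glial RNA in its values was not tested. Summed over 22 markers of glia and other cell types, its level was 3950 and 7759 CPM, against 2034 to 9824 CPM over the other chx10:GFP clusters and plates. Of the fixed marker types V2a fast matched the cd74a-led cluster best, with 5 of 5 markers detected. The rule on glial genes left it unnamed. Its summed MN markers, which include cholinergic genes, were at 4422 and 5143 CPM, against 29.4 to 2094 CPM over the other chx10:GFP clusters and plates. At resolution 0.8 a cluster of 104 chx10:GFP cells was named V2a fast-like.

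neurod1 was at 1346 and 887 CPM in immature neuron-like cells and at 695 and 712 CPM in the cd74a-led cluster. It was at 180 and 246 CPM in V2a slow-like cells and at 2.36 and 24.1 CPM in V2a intermediate-like cells. The order was the same on both plates, and how many of all genes kept their order in this way was not counted. Positive cells after thinning were 86.7% (59.5 to 98.3) and 80.9% (69.5 to 89.4) of immature neuron-like cells. In the cd74a-led cluster they were 78.6% (69.1 to 86.2) and 74.0% (64.5 to 82.1), which overlapped the immature neuron-like intervals. They were 36% (25.2 to 47.9) and 47.8% (32.9 to 63.05) of V2a slow-like cells, and 4.17% (0.868 to 11.7) and 3.45% (0.42 to 11.9) of V2a intermediate-like cells. Against the mean of the other clusters, immature neuron-like cells were 3.30 ± 0.56 higher on the log2 scale (edgeR adjusted p = 0.0133), where 2.84% of all genes were called higher. V2a intermediate-like cells were lower, at -5.60 ± 0.86 (adjusted p = 0.0228), beside 0.596% of all genes. The F test over clusters gave an adjusted p of 0.0269, and 0.0621 without the cd74a-led cluster.

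neurod4 fell into the same order on both plates. It was at 573 CPM on each plate in immature neuron-like cells, at 98.5 and 157 CPM in the cd74a-led cluster, at 18.1 and 13.3 CPM in V2a slow-like cells and at 6.56 and 8.64 CPM in V2a intermediate-like cells. No cluster overlapped its neighbour in this order, and how many of all genes had clusters apart in this way was not counted. In immature neuron-like cells 9 of 15 and 39 of 76 cells were positive. The F test gave an adjusted p of 0.00119. Against the mean of the others immature neuron-like cells differed by 4.51 ± 0.24 on the log2 scale (edgeR adjusted p = 0.000279) and V2a intermediate-like cells by -3.71 ± 0.33 (adjusted p = 0.00254). V2a slow-like cells differed by -2.32 ± 0.30 (adjusted p = 0.0331), where 0.0533% of all genes were called lower. The medians of all genes were -0.37, 0.14 and 0.09. On plate 2 immature neuron-like cells were 23.4% of the cells and held 67.9% of the neurod4 reads, and on plate 1 they were 5% of the cells and held 38.1%.

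ebf1-Y was at 83.2 and 79.4 CPM in immature neuron-like cells, 60.5 and 67.5 CPM in the cd74a-led cluster, 15.0 and 16.8 CPM in V2a intermediate-like cells and 5.39 and 9.92 CPM in V2a slow-like cells. Immature neuron-like cells were 2.03 ± 0.41 above the mean of the others on the log2 scale (edgeR adjusted p = 0.0282). The F test over clusters gave an adjusted p of 0.0432, which became 0.0648 at a clustering resolution of 0.8 and 0.147 without the cd74a-led cluster. The level of V2a slow-like cells lay above that of V2a intermediate-like cells in neurod1 and below it in ebf1-Y, on both plates. ebf1-Y positive cells after thinning were 5.33% and 6.52% of V2a slow-like cells, against 8.33% and 8.62% of V2a intermediate-like cells. The intervals of these shares overlapped. Cells with any ebf1-Y read were 18.6% and 20.75%, against 22.78% and 17.81%, so that order turned between plates. These orders were not tested or counted over all genes, so nothing is read from them. ebf1-X had no positive cell in any chx10:GFP cluster, and its highest level was 0.862 CPM.

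**Figure D3:**
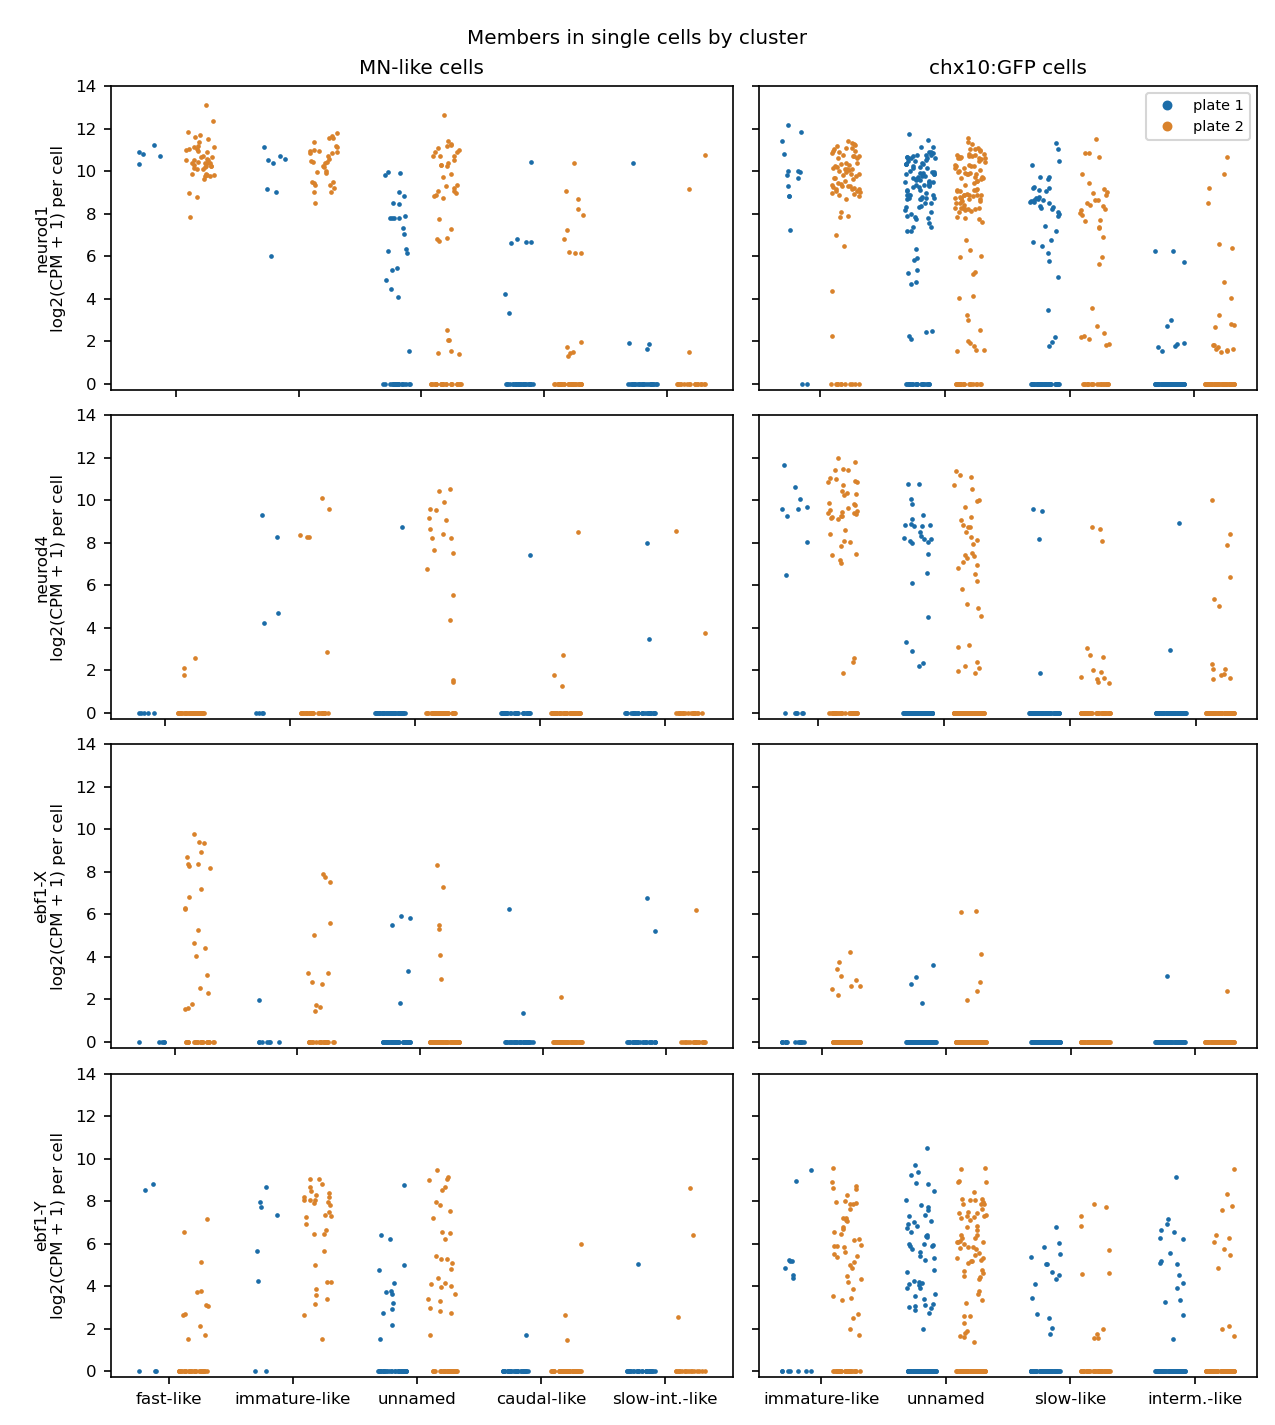
Level of each gene in each cell, as log2(CPM + 1), by cluster of MN-like cells (left) and chx10:GFP cells (right), plate 1 in blue and plate 2 in orange, with points spread sideways at random. Cells at 0 had no read. neurod1 has no cell at 0 in fast-like and immature neuron-like MN cells, while neurod4 in the fast-like cells stays at or below 4.96 CPM.

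The levels in the immature neuron-like cells of both lines were then set side by side. neurod1 was at 1223 and 1545 CPM in the MN-like ones, against 1346 and 887 CPM in the chx10:GFP ones. neurod4 was at 148 and 80.5 CPM in the MN-like ones, against 573 CPM on both plates in the chx10:GFP ones. ebf1-Y was at 124 and 180 CPM in the MN-like ones, against 83.2 and 79.4 CPM in the chx10:GFP ones. The ranges of neurod4 and ebf1-Y did not overlap, with opposite orders, and these differences were not tested. The MN-like values of plate 1 rest on 8 cells. How many of all genes had ranges apart was not counted, so nothing is read from these orders.

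Detection of the genes in the same cell was counted at 10 or more reads. In isl1a:GFP cells, 5 of 6 neurod4 positive cells on plate 1 and 25 of 25 on plate 2 were also positive for neurod1, against 15.8% and 36.4% of all cells. Of these neurod4 positive cells, 6 of 6 and 23 of 25 were MN-like. Among all MN-like cells 31.7% and 58.9% were positive for neurod1. In chx10:GFP cells, 29 of 35 and 57 of 73 neurod4 positive cells were positive for neurod1, against 47% and 56.6% of all cells. Of these neurod4 positive cells, 9 and 39 were immature neuron-like and 22 and 28 lay in the cd74a-led cluster. Among all cells of those clusters, 86.7% and 82.9%, and 75.8% and 73.2%, were positive for neurod1. In the other direction, 12.2% and 18.9% of neurod1 positive isl1a:GFP cells had neurod4, against 20.6% and 31% of the chx10:GFP ones. Most neurod4 positive cells were thus also neurod1 positive. Whether this goes beyond the neurod1 shares of their classes and clusters was not tested. ebf1-Y positive cells carried neurod1 in 44% and 84.2% of cases in isl1a:GFP and in 59.6% and 74.7% in chx10:GFP.

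No cell was positive for both neurod4 and ebf1-X. On the isl1a:GFP plates 6 and 25 cells were positive for neurod4 and 9 and 24 for ebf1-X, that is 2.32% and 6.89%, and 3.48% and 6.61%, of the cells. With so few positive cells nothing is read from the count of 0. ebf1-X and ebf1-Y were found together in 1 and 4 isl1a:GFP cells, that is 11.1% and 16.7% of ebf1-X positive cells, near the 9.65% and 15.7% of all cells with ebf1-Y. ebf1-X went with neurod1 in 21 of 24 positive cells on plate 2 and in 2 of 9 on plate 1. No cell was positive for all 4 genes, and 4 and 18 isl1a:GFP cells, against 9 and 26 chx10:GFP cells, were positive for 3 of them.

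**Figure D4:**
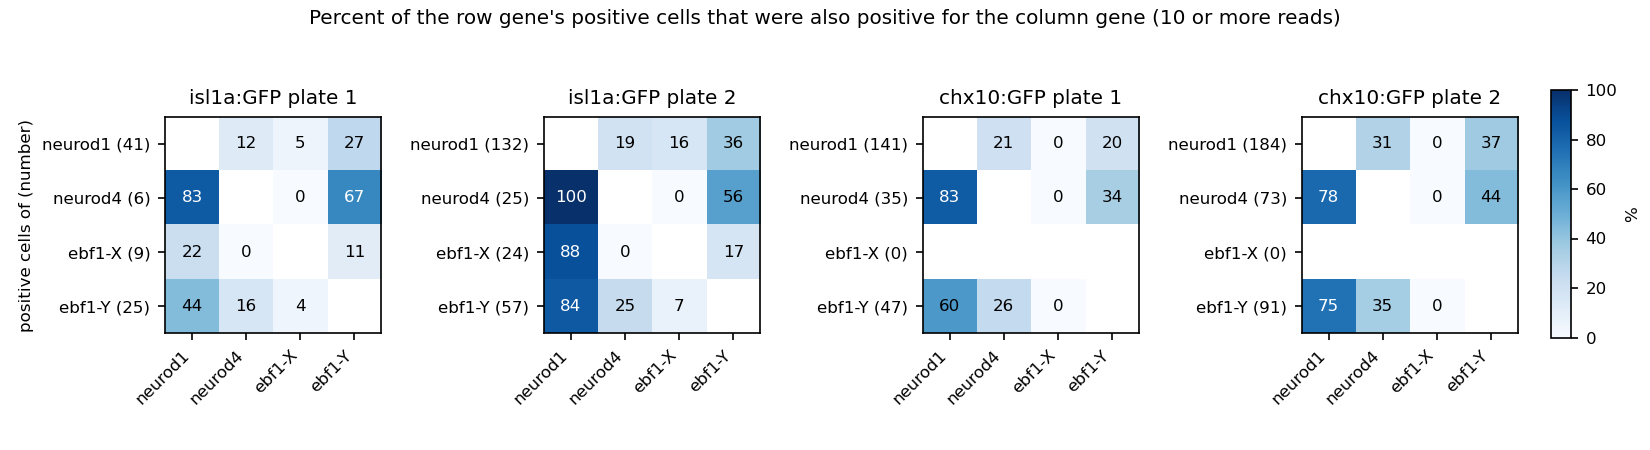
Each panel is a plate. A square gives the percent of the row gene's positive cells (number in brackets, 10 or more reads) that were also positive for the column gene, from white at 0% to dark blue at 100%. The diagonal is blank, as are rows with 0 positive cells. neurod4 positive cells were positive for neurod1 in 83.3% and 100% of cases on the isl1a:GFP plates and in 82.9% and 78.1% on the chx10:GFP plates.

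The depth of positive and remaining cells was compared next. neurod1 positive isl1a:GFP cells had a median of 412204 and 421192 gene reads, against 403750 and 439756 in the remaining isl1a:GFP cells. They differed in the number of genes detected, without a shared direction: 4841 and 3467 genes, against 3903 and 4147. neurod1 positive chx10:GFP cells had fewer genes, 3295 and 3200, against 4378 and 4626 in the remaining cells. Their median depth was lower as well on both plates, at 303286 and 360326 gene reads, against 343410 and 384264 in the remaining cells. The median of the summed immature neuron markers was higher in cells positive for neurod1, neurod4 or ebf1-Y than in the remaining cells on all 4 plates. For neurod4 the medians were 22550 and 23490 CPM, against 2842 and 7435 CPM in the remaining isl1a:GFP cells, and 3956 and 5537 CPM, against 3013 and 2995 CPM in the remaining chx10:GFP cells. For neurod1 they were 3012 and 18860 CPM, against 2823 and 5153 CPM in the remaining isl1a:GFP cells, and 3449 and 3865 CPM, against 2781 and 2723 CPM in the remaining chx10:GFP cells. For ebf1-Y they were 5456 and 22290 CPM, against 2809 and 6898 CPM in the remaining isl1a:GFP cells, and 3757 and 4193 CPM, against 3044 and 3028 CPM in the remaining chx10:GFP cells. ebf1-X positive isl1a:GFP cells were higher as well, at 4426 and 14540 CPM, against 2843 and 7687 CPM. In isl1a:GFP these medians also compare cell classes, since 95.1% and 93.2% of neurod1 positive cells were MN-like. Over all MN-like cells the median of the summed markers was 3651 and 14470 CPM. That lies above the neurod1 positive median on plate 1 and below it on plate 2.

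The markers of glia and other cell types moved with neurod1 and neurod4 in chx10:GFP. Their summed level had a median of 1731 and 3618 CPM in neurod1 positive chx10:GFP cells, against 1527 and 2050 CPM in the remaining ones. In neurod4 positive chx10:GFP cells it was 1716 and 4515 CPM, against 1627 and 2396 CPM. For ebf1-Y it was 1388 and 3230 CPM, against 1702 and 2754 CPM, so the order turned between plates. In isl1a:GFP cells the medians were 424.2 to 1302 CPM in positive cells of the 4 genes, against 601.0 to 745.8 CPM in the remaining cells. The part of RNA from such cells in these values was not tested.

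The genes whose levels followed each member most closely over cells were listed by the smaller of the 2 plate correlations (Pearson r of log2(CPM + 1)), without a test, since cells of a plate share their pool, depth and sort. For neurod1 the first was NFIX (ENSDARG00000061836), a nuclear factor I gene, in both lines, with r of 0.60 and 0.87 over 259 and 363 isl1a:GFP cells and of 0.61 and 0.63 over 300 and 325 chx10:GFP cells. In isl1a:GFP cells nfixa, nhlh2, mafbb and TCF4 came next, with smaller r of 0.45 to 0.54. In chx10:GFP cells the next were the neurod6 copy ENSDARG00000040008 and the cholinergic genes SLC18A3, CHAT and SLC5A7, with smaller r of 0.43 to 0.55.

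For neurod4 the first was nhlh2, a bHLH gene of young neurons, in isl1a:GFP cells (r of 0.49 and 0.46), followed by EBF3, NFIX, DCC and NOTCH1. neurod4 itself was read in 3.86% and 10.7% of isl1a:GFP cells, so on plate 1 these r rest on few cells. In chx10:GFP cells it was nfixa (0.35 and 0.43), followed by NFIX, neurod1, NFIA and NRP2. For ebf1-Y it was EBF3 (ENSDARG00000100244) in isl1a:GFP cells, with r of 0.58 on each plate, followed by adcyap1b, nhlh2, neurod1 and tafa2. For ebf1-Y in chx10:GFP cells the first was SLC18A3, at 0.26 and 0.29, and for ebf1-X in isl1a:GFP cells it was efna3a, at 0.21 and 0.22. Such weak values in sparse counts are no finding. Between members the r of neurod1 with neurod4 was 0.34 and 0.35 in isl1a:GFP cells and 0.30 and 0.29 in chx10:GFP cells.

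The remaining family members were then set beside the 4 genes. neurod2 was at 4.34 and 50.8 CPM in isl1a:GFP cells, against 10.1 and 7.19 CPM in chx10:GFP cells, and differed among the isl1a:GFP classes (edgeR adjusted p = 0.0228). The neurod6 copy ENSDARG00000040008 was at 15.1 and 61.0 CPM in isl1a:GFP cells, against 292 and 420 CPM in chx10:GFP cells (log2 difference -3.16 ± 0.69, edgeR adjusted p = 0.0703). The second neurod6 copy, ENSDARG00000020794, was at 17.2 and 86.5 CPM in isl1a:GFP cells, against 142 and 222 CPM in chx10:GFP cells. In clusters low in neurod1 the neurod6 copies were at most 16.3 CPM (V2a intermediate-like cells), 7.08 CPM (MN caudal-like cells) and 34.1 CPM (MN slow-intermediate-like cells). The edgeR F test called neither copy among clusters. For ENSDARG00000040008 the adjusted p was 0.127 among MN-like and 0.176 among chx10:GFP clusters. For ENSDARG00000020794 it was 0.458 and 0.179. ebf2 was at 460 and 521 CPM in immature neuron-like MN cells and at 514 and 115 CPM in immature neuron-like chx10:GFP cells, and did not pass 11.5 CPM in any further chx10:GFP cluster. EBF3 (ENSDARG00000100244) was at 590 and 559 CPM in MN fast-like cells and at 1131 and 989 CPM in immature neuron-like MN cells. ebf3b had reads on 3 plates and none in MN-like cells.

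Between lines 0 of the 5 NEUROD and 0 of the 5 EBF genes were called, beside 3.04% of all genes. Among isl1a:GFP classes 2 of 5 NEUROD genes (neurod1 and neurod2) and 2 of 4 tested EBF genes (ebf2 and EBF3) were called, beside 5.59% of all genes. Among MN-like clusters these counts were 1 of 5 and 0 of 4, beside 0.34% of all genes. Among chx10:GFP clusters they were 2 of 5 (neurod1 and neurod4) and 3 of 4 (ebf1-Y, ebf2 and EBF3), beside 3.16% of all genes. Against the mean of the other MN-like clusters, immature neuron-like cells were higher in 3 of 5 NEUROD genes (neurod1, neurod4 and the neurod6 copy ENSDARG00000040008) and in 2 of 4 EBF genes (ebf2 and EBF3), beside 0.51% of all genes. Against the other chx10:GFP clusters they were higher in 2 of 5 and 3 of 4, beside 2.84% of all genes.

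Of the further bHLH genes, 3 of 14 tested were called between lines, beside 3.04% of all genes. bhlhe22, a bHLH gene known from mouse dorsal interneurons, was lower in isl1a:GFP cells (log2 difference -6.67 ± 0.45, edgeR adjusted p = 0.00233). The proneural gene ascl1a was higher (6.67 ± 1.11, adjusted p = 0.0329), as was bhlhe23 (3.32 ± 0.62, adjusted p = 0.0473). Among MN-like clusters bhlhe23 was the only 1 of 11 called (adjusted p = 0.0322; 0.34% of all genes were called), at 96.5 and 226 CPM in slow-intermediate-like cells, where neurod1 was lowest on plate 1, and did not pass 9.43 CPM in any further cluster. nhlh2 and bhlhe22 were the 2 of 12 called among chx10:GFP clusters, beside 3.16% of all genes, and 0 of 11 were called among isl1a:GFP classes. nhlh2 (adjusted p = 0.00164) was at 541 and 802 CPM in immature neuron-like cells and at 14.6 and 12.6 CPM in V2a intermediate-like cells.

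Of the E and Id proteins, the partners and inhibitors of bHLH factors, 0 of 9 were called between lines. Among isl1a:GFP classes, where 5.59% of all genes were called, id2a and id2b were the 2 of 9 called (edgeR adjusted p = 0.0116 and 0.0103). MN-like cells had id2b at 103 and 60.9 CPM, against 8.58 and 6.90 CPM in serotonergic neuron-like cells. Among chx10:GFP clusters, beside 3.16% of all genes, 3 of 9 were called, the E proteins tcf4 (adjusted p = 0.00473), tcf3b (0.0217) and tcf3a (0.0324) of the edgeR F test. tcf4 was at 165 and 198 CPM in immature neuron-like cells and at 2.36 and 1.01 CPM in V2a intermediate-like cells. Of the 23 other differentiation regulators listed, 7 could be matched to a single gene row and 6 were tested, so most of that list was not read. Among chx10:GFP clusters dlb, a Delta ligand of Notch, was the only 1 of 6 called (edgeR adjusted p = 0.0038). It was at 484 and 148 CPM in immature neuron-like cells and at most 0.554 CPM elsewhere. Among isl1a:GFP classes 2 of 6 were called, myt1la (edgeR adjusted p = 0.0114) and btg2 (0.0123). MN-like cells had myt1la at 86.5 and 105 CPM, against 3.15 and 6.48 CPM in cerebrospinal fluid-contacting neuron-like cells. Of the progenitor and cycling genes 0 of 12 were called between lines or among chx10:GFP clusters. Among isl1a:GFP classes sox2 and sox3 were the 2 of 11 called (edgeR adjusted p = 0.0204 and 0.0205). sox2 alone was called among MN-like clusters, 1 of 9 (adjusted p = 0.0322) beside 0.34% of all genes, and was highest in the neurod1 high fast-like cells, at 583 and 333 CPM. The cycling gene mki67 had no read in fast-like or immature neuron-like MN cells. Other genes of that list had reads there. Summed over 14 progenitor and cycling genes, fast-like cells were at 687.5 and 474.8 CPM. Most of that sum was sox2, and 4 and 9 of the 14 genes had any read on plates 1 and 2. Immature neuron-like MN cells were at 284.6 and 264.1 CPM, against 66.4 to 256.7 CPM over the other MN-like clusters and plates.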

How the data were processed

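Smart-seq2 libraries of single sorted spinal neurons were read as raw counts per gene and well, as the authors deposited them, with isl1a:GFP plate 2 in a table of its own. The authors mapped reads to GRCz11 with STAR 2.5.3a, per the submitters' notes and methods, and kept uniquely mapped reads. The counting program and annotation release are not given in the sources used here. Gene names came from a name table, which matched 29200 of 32519 gene rows.

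Wells with 2000 to 9000 detected genes and at most 30% spike-in counts were kept, which left 1247 of 1536 wells. This is more cells in both lines than the study states, and which further wells were removed is not given in the sources used here. Spike-in rows (3.17% of all counts) and the GFP row (0.517%) stayed out of library sizes and tests. The lowest and highest median depth per plate were 324159 and 436783 gene reads. No doublet caller was run. Reads without molecular identifiers are not independent molecules, so intervals at 95% cover counting error only.

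Cells of each line were clustered in Seurat 5.3.0 (2000 variable genes without the 4 genes and the listed regulators, 10 principal components, resolution 0.6). MN-like cells were clustered again. Integration over plates was applied to isl1a:GFP cells and to MN-like cells only. Clustering of chx10:GFP cells had no such step. Clusters were named "-like" from fixed markers. The rules that left clusters led by glial or Notch target genes unnamed were added after the data were seen. Counts were summed per plate, or per plate and cluster with at least 5 cells, and tested with edgeR 4.0.16 (quasi-likelihood, TMM, filterByExpr, Benjamini-Hochberg adjustment over all genes, R 4.3.3). Cluster tests had the plate as a term. DESeq2 1.42.0, other filters, normalization, resolutions, depth thinning to 240501 reads per cell and leaving out each plate were alternatives. The tests were also run on simulated plate sums with a fixed dispersion and no plate effect. Those runs cannot show how the tests behave where plates differ, as they do here.

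The 4 genes were named in every comparison, with all detected NEUROD and EBF genes, at most 4 called genes per other list and comparison by size of change, and the 5 genes most alike per member, among genes read in at least 10% of cells on both plates. Glial and check genes and cluster leaders were named as they touched a result. The genes and lists were chosen with earlier results of these data known. Each group had 2 plates, and exact tests over so few plates were not used.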

Additional observations from a re-analysis of the deposited data

Results flagged for a closer look

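Reads of the genes also lay in the 289 wells that the filter on detected genes and spike-ins left out of all comparisons, and they are given because no comparison used them. These wells held 9299 neurod1 reads, 4659 neurod4 reads, 42 ebf1-X reads and 1413 ebf1-Y reads in all. neurod1 was at 470 and 78.7 CPM in the left-out isl1a:GFP wells of plates 1 and 2, against 348 and 191 CPM in the left-out chx10:GFP wells. neurod4 was at 6.16 and 0.39 CPM in the left-out isl1a:GFP wells, against 132 and 159 CPM in the left-out chx10:GFP wells. With 10 or more reads, neurod1 was found in 2 of 125 and 3 of 21 left-out isl1a:GFP wells, against 22 of 84 and 14 of 59 left-out chx10:GFP wells. The left-out isl1a:GFP wells held 1298944 and 2565466 gene reads in all, against 15246029 and 16617752 in the chx10:GFP ones. The 470 CPM rested on 610 neurod1 reads, so these levels are not compared with those of kept cells.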

How the results depend on the processing

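The count of the 4 genes called between isl1a:GFP and chx10:GFP cells was 0, and it was 2 with a replicate block, 2 with DESeq2, 1 with no filter on low counts, 1 with cells thinned to equal depth and 1 with at least 3000 genes per well. Leaving out 1 plate at a time gave 0 to 2. Between MN-like and chx10:GFP cells it was 0, and 2 with the replicate block, 1 with DESeq2, 1 with no filter and 0 to 1 leaving out 1 plate. No source says that plates of the same number share a day or batch. Their deviations from the group means correlated over genes with r of 0.187 (12419 genes) and 0.214 (11932 genes, MN-like cells), and 2 pairs cannot show a pairing. Among isl1a:GFP classes 1 gene was called, and 0 without the replicate block, 4 with DESeq2 and 4 with no filter. Among MN-like clusters 1 gene was called, and 0 without the replicate block, 3 with DESeq2, 3 with no filter, 0 at resolution 0.8 and 2 when integrated once with all isl1a:GFP cells. Among chx10:GFP clusters 3 were called, and 1 without the cluster led by glial and immune genes, an alternative chosen after seeing the data, as was leaving out the 5 fast-like cells of plate 1. DESeq2 and the runs with no filter also called more of all genes in every comparison, as counted below, so nothing is read from their larger counts. The cause of these changes was not tested.

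Directions turned in these cases. The neurod1 difference between lines ranged from -2.07 without isl1a:GFP plate 2 to 0.20 without isl1a:GFP plate 1, and between MN-like and chx10:GFP cells from -0.95 without MN-like plate 2 to 1.04 without MN-like plate 1. The ebf1-Y difference between MN-like and chx10:GFP cells was 0.035 with at least 3000 genes per well, -1.04 without MN-like plate 2, 0.53 without MN-like plate 1 and 0.31 without chx10:GFP plate 2. The difference of ebf1-X from the mean of the other clusters in log2(CPM + 1), which has no test, was -1.66 without plate 2 and 4.19 without plate 1 for fast-like cells. For immature neuron-like chx10:GFP cells it was -0.14 and 0.757.

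Counts over all genes moved as well. Between lines 728 genes were called, and 1154 with the block, 3161 with DESeq2, 1217 with no filter and 423 to 1096 leaving out 1 plate. Between MN-like and chx10:GFP cells 177 were called, and 699, 2144 and 688 in the same order, 282 thinned, 109 with at least 3000 genes and 89 to 1533 leaving out 1 plate. Among classes it was 1106, and 4223 with DESeq2, 2147 with no filter and 679 at resolution 0.8. Among MN-like clusters it was 60, and 10 without the block, 1055 with DESeq2, 679 with no filter, 21 and 39 at resolutions 0.4 and 0.8 and 131 integrated once. Among chx10:GFP clusters it was 652, and 2445 with DESeq2, 1254 with no filter and 294 without the glial-led cluster. With 2 plates a group, and 5 to 8 cells behind some plate sums, differences in the rarer genes may not be detectable at this depth.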
